A study of Mus musculus with 7 samples.

Results

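The genes described here encode collagens, laminins and the proteins that link or accompany them in basement membranes and in the interstitial matrix of the mouse thyroid. Members were taken by name, as every row called Col, a number, a and a number, or Lama, Lamb or Lamc and a number, together with Nid1, Nid2, Hspg2, Fn1, Agrn, Sparc, Fbn1, Eln, Dcn, Lum, Bgn, Prelp, Smoc2 and Spon1. This gave 69 of 30879 rows, namely 6 collagen IV genes, 11 laminins, 4 linkers, 2 multiplexin collagens, 4 matricellular or adhesive genes, 11 fibrillar collagens, 6 collagen VI genes, 19 other collagens, 4 small leucine-rich proteoglycans and 2 elastic fibre genes. The rule uses names only, and it was set with earlier results of these data known.

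The study derived thyroid follicular cell organoids (TFCOs) from adult mouse thyroid and sequenced single cells of primary tissue and of TFCOs to ask how closely cultured thyroid follicular cells (TFCs) resemble those of the gland. There were 2 samples of primary tissue, 2 of early passage TFCOs and 3 of late passage TFCOs, all from wild type C57BL/6 mice and without further treatment. TFCOs were grown in basement membrane extract (BME) with R-spondin 3, the TGFβ receptor inhibitor A83-01, forskolin, EGF and FGF10, and BME itself supplies laminin, collagen IV and nidogen as protein, which RNA measurements do not see. The tissue was freed with collagenase and TrypLE, whereas TFCOs were released from BME with a recovery solution and then dissociated with TrypLE, so culture, loss of the neighbouring cell types and the way cells were released cannot be told apart. The series text states 2 biological replicates of each kind, so some of the 3 late passage samples may share an organoid line, and p-values measure the spread between the samples as labelled.

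A basement membrane is the thin sheet on which an epithelium, an endothelium or a mural cell rests. Laminin trimers of an alpha, a beta and a gamma chain polymerize at the cell surface, collagen IV trimers form another network, and nidogens, perlecan and agrin tie the networks together. Fibrillar collagens, collagen VI and the small leucine-rich proteoglycans build the interstitial matrix between cells and are typical products of fibroblasts. In the thyroid a basement membrane encloses each follicle and another surrounds the dense capillary bed that lies against it.

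The 6 collagen IV genes lie as head-to-head neighbours in the genome, and since neighbouring members of the family are compared below their arrangement is shown first. Coordinates are those of GENCODE vM21 on GRCm38, the build named in the labels. Col4a1 (chr8:11198423-11312826, minus strand) and Col4a2 (chr8:11312805-11449287, plus strand) overlap at their starts by 22 bases, so the stretch before each start is transcribed in the other gene and no sequence of it is given. Between Col4a4 (chr1:82448423-82586849, minus strand) and Col4a3 (chr1:82586921-82722059, plus strand) lie 71 bases. Col4a6 (chrX:141165403-141474076, minus strand) and Col4a5 (chrX:141475385-141689234, plus strand) start 1308 bases apart. The untranscribed stretches next to these starts are printed 5′ to 3′ on the strand of the named gene, from the RefSeq promoter windows of GRCm38.p6, with capitals marking the CCAAT box motif (the letters CCAAT), the GC box motif (GGGCGG) or the TATA box motif (TATAAA) on either strand.
Col4a4, chr1:82586850-82586920, the whole interval to Col4a3: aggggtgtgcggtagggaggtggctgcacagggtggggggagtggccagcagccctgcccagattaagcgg
Col4a6, chrX:141474077-141474326: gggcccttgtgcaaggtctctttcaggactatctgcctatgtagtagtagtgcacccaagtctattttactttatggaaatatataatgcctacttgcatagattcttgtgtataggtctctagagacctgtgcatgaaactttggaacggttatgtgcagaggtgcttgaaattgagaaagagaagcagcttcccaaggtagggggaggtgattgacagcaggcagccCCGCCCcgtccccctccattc
Col4a5, chrX:141475169-141475384: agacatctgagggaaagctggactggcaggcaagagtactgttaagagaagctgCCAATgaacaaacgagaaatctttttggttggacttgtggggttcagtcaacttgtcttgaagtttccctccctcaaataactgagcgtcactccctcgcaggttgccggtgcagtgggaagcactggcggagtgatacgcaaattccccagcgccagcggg
The Col4a6 stretch held 1 GGGCGG and the Col4a5 stretch 1 CCAAT, while the Col4a4 stretch held none of the 3 motifs. Over 27025 promoter windows of 250 bases before and 50 after a start, 37.9% held CCAAT, 35.9% GGGCGG and 14.2% TATAAA on either strand. In windows of that length the Col4a1, Col4a2 and Col4a5 genes held both CCAAT and GGGCGG, Col4a6 held GGGCGG and Col4a4 none of them. GC content was 69% in the Col4a4 stretch, 47.6% in the Col4a6 stretch and 52.3% in the Col4a5 stretch.

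The recovered depth was 1406925 and 1589528 unique molecular identifiers (UMIs) in the tissue samples and 1985836 to 4703472 in the TFCO samples. Levels are mean UMIs per 10000 UMIs of a cell over cells of at least 1000 UMIs, and since each UMI tags the 3′ end of 1 molecule they were compared between genes without a length correction. Cells were grouped by clusters made without the member genes and named from marker lists, which gave endothelial-like (91 and 90 cells in tissue samples 1 and 2), mural-like (28 and 29), stromal-like (15 and 7), immune-like (33 and 24) and TFC-like cells (45 and 45), with 155 tissue cells left unnamed. In TFCOs 1409 cells were TFC-like, 214 and 304 in the early and 307, 345 and 239 in the late samples. All 14 TFC markers had UMIs in TFC-like cells of every sample, with a summed level of 1660 and 1240 in tissue and 97.2 to 189 in TFCOs. The thyroglobulin gene Tg alone gave 1630 and 1200 in tissue and 65.3 to 155 in TFCOs, and the other 13 markers summed to 36.2 and 38.7 in tissue and 24.5 to 41.2 in TFCOs. Tissue sample 2 holds 2 very deep TFC-like cells, and its stromal-like class rests on 7 cells and 22909 UMIs. The 7 samples shared the same 384 well barcodes, of which 305 were seen in every sample. Because some genes followed the well barcode across plates, the correlation between cells of the same barcode was computed for each member, and it was above 0.05 for 15 of 61 members with an estimate and for 21.4% of 19498 genes. Comparisons between cell classes of the same samples are given as values only, with no test.

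Summed over all 69 members, matrix RNA was highest in the stromal-like cells of the gland, at 490 and 362 UMIs per 10000 in tissue samples 1 and 2. Mural-like cells followed with 162 and 150 and endothelial-like cells with 123 and 128. TFC-like cells held 51.6 and 51.9 in tissue and 35.5, 37.8, 46.3, 32.6 and 36.1 in early samples 1 and 2 and late samples 1 to 3. Immune-like cells were lowest at 23.9 and 19.2. The classes thus kept the same order in both tissue samples, and every TFCO sample lay between the immune-like and the TFC-like cells of the gland. Of the 69 members, 43 reached 1 UMI per 10000 in at least 1 named tissue class, and the class with the highest mean was stromal-like for 26 of them, endothelial-like for 8, mural-like for 4, TFC-like for 4 and immune-like for 1. Both samples of the leading class stood above every other class for 14 of the 26, 7 of the 8, 3 of the 4, 3 of the 4 and 0 of the 1. The same counts were not made over all genes, so they are not read as a trait of matrix genes. The stromal-like class rests on 15 and 7 cells.

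**Figure D1:**
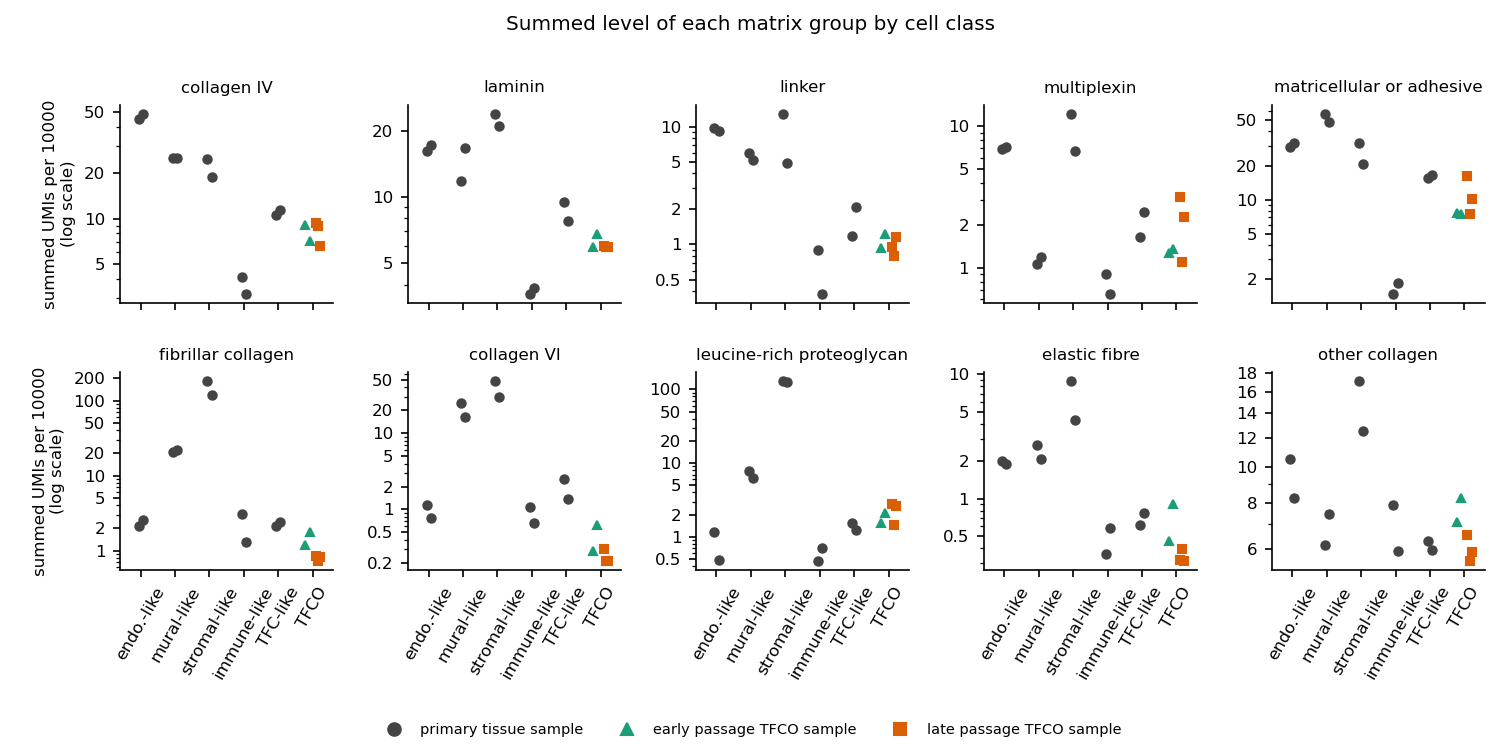
Summed level of each matrix group (UMIs per 10000, log scale) by cell class, with 1 point per sample and each panel on its own scale. Fibrillar collagens stand at 182 and 119 in stromal-like cells against 2.10 and 2.39 in TFC-like cells of the gland, whereas collagen IV is highest in endothelial-like cells at 44.7 and 48.4.

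Endothelial-like cells carried the main collagen IV chains of the gland. Col4a1 stood at 23.3 and 26.0 in the endothelial-like cells of the 2 tissue samples, 12.9 and 12.4 in stromal-like, 10.2 and 13.2 in mural-like, 1.85 and 2.21 in TFC-like and 0.593 and 0.130 in immune-like cells. Its neighbour Col4a2 stood at 18.5 and 18.7 in endothelial-like, 11.9 and 9.23 in mural-like and 7.09 and 3.76 in stromal-like cells, and at 2.22 and 3.66 in TFC-like cells. For both genes the endothelial-like cells were above every other class in each sample, while mural-like and stromal-like cells overlapped for Col4a1.

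Other members led in endothelial-like cells as well. Hspg2, which encodes perlecan, stood at 4.73 and 3.90 there against 2.03 and 2.16 in stromal-like cells. Col13a1, a transmembrane collagen, stood at 5.84 and 4.12, and no other class mean passed 0.915, with a barcode correlation of 0.1027. Among the laminin alpha chains, Lama4, the chain typical of vessel walls, stood at 2.90 and 3.93 and overlapped the mural-like cells at 1.86 and 3.15. Lama3 reached 3.13 and 3.37 in endothelial-like cells against 0.572 and 0.459 in TFC-like cells, although laminin alpha 3 is better known from epithelial basement membranes. Lama5 was lower, at 0.876 and 1.15, and was next highest in TFC-like cells at 0.107 and 0.577. Agrn, which encodes the proteoglycan agrin, stood at 1.29 and 0.979. Col15a1, a multiplexin of vascular and muscle basement membranes, was high in endothelial-like cells at 6.79 and 6.80 and overlapped there with the stromal-like cells at 11.5 and 5.98.

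Mural-like cells, the pericytes and smooth muscle cells around vessels, were set apart mainly by Sparc, a matricellular protein that binds collagen. Sparc stood at 54.0 and 45.9 in mural-like, 27.9 and 31.0 in endothelial-like, 23.8 and 15.2 in stromal-like, 11.7 and 11.1 in TFC-like and 0.572 and 0.462 in immune-like cells. Lamc3, a laminin gamma chain, stood at 1.85 and 1.85 in mural-like cells, above 0.370 and 1.72 in stromal-like cells. Spon1, the adhesive protein F-spondin, stood at 2.57 and 1.51, with a barcode correlation of 0.0564. Col6a1, a chain of the beaded filament collagen VI, stood at 11 and 5.51 in mural-like and at 15.3 and 10.9 in stromal-like cells. Col3a1 stood at 7.6 and 7.5 in mural-like cells.

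Stromal-like cells were dominated by interstitial matrix. Dcn, the proteoglycan decorin that coats collagen fibrils, stood at 102 and 103, and no other class mean passed 0.747. The fibrillar collagen genes followed, with Col3a1 at 64.3 and 37.9, Col1a2 at 62.9 and 47.3 and Col1a1 at 37.6 and 27.4. In the TFC-like cells of the gland Col1a1 stood at 0.0827 and 0.181 and Dcn at 0.577 and 0.275, so these genes separated the classes by far more than the difference between the 2 tissue samples. Stromal-like cells also led for several basement membrane genes. Lama2, the laminin alpha chain of muscle and nerve, stood at 13 and 6.92 there against 3.27 and 4.55 in mural-like cells. Nid1, the linker nidogen 1, stood at 7.99 and 2.75 in stromal-like, 3.68 and 3.83 in mural-like and 2.76 and 3.93 in endothelial-like cells, which overlapped. Nid2 stayed under 1 in every class except the stromal-like cells of tissue sample 1, at 1.93.

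Immune-like cells held little matrix RNA. Their highest members were Col25a1 at 1.99 and 1.83, Col14a1 at 1.98 and 1.42, Lama2 at 1.14 and 1.41 and Col4a4 at 0.981 and 1.20. Of these, Lama2 and Col4a4 followed the well barcode in TFCO cells with correlations of 0.2144 and 0.4126, and Col25a1 with 0.1001. A level near 1 for these genes is thus also found in cells whose levels of Col4a1 and Sparc were between 0.130 and 0.593. The part of the barcode in these levels was not tested.

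**Figure D2:**
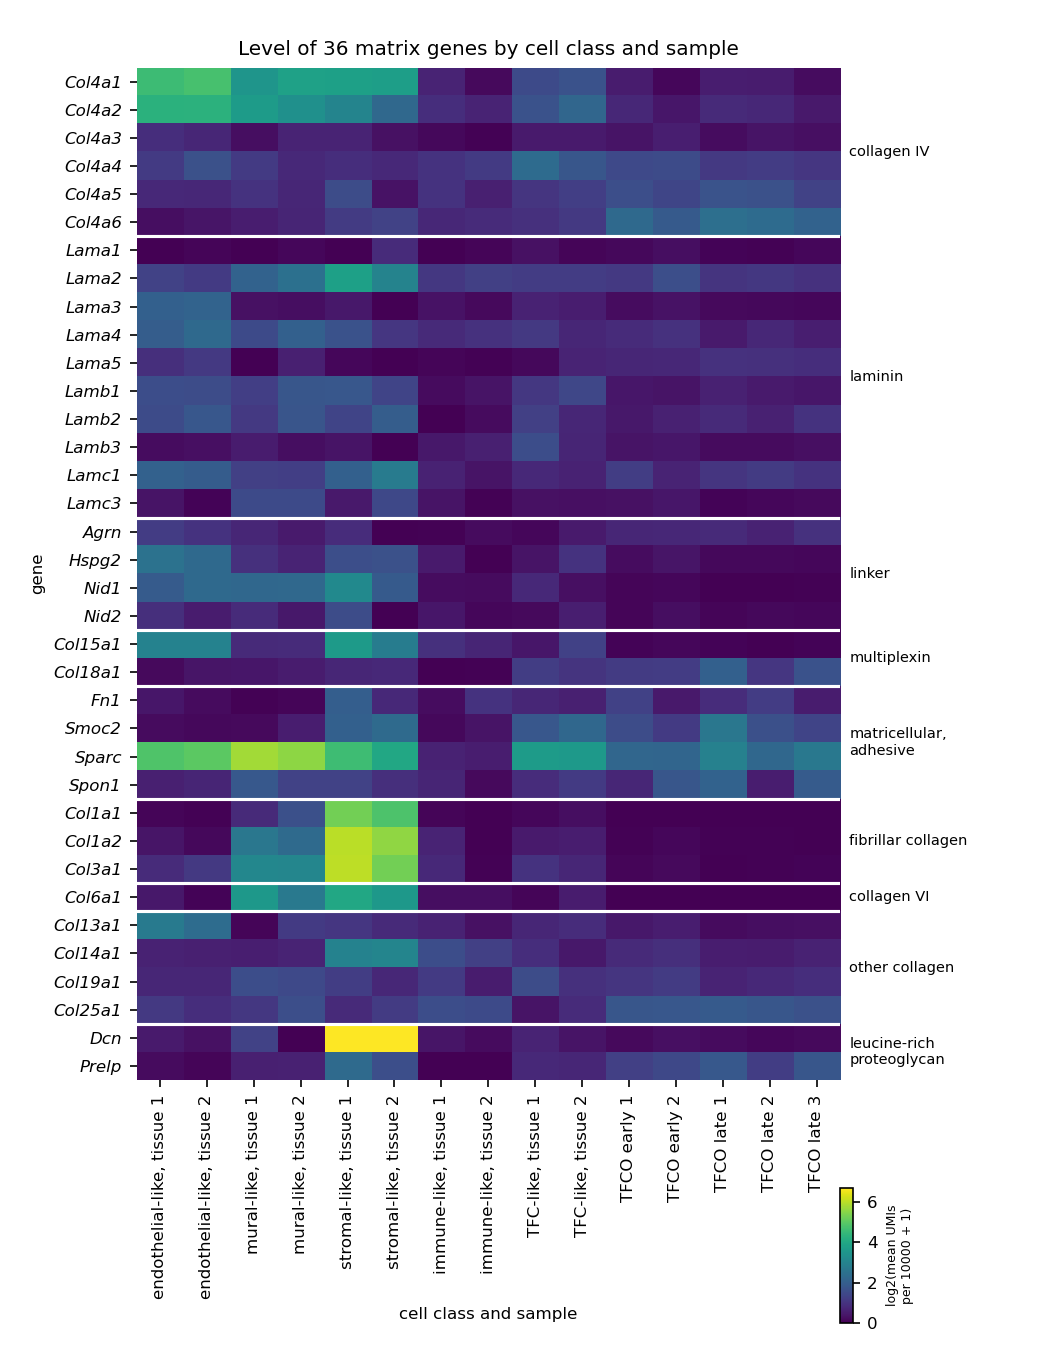
Level of 36 members (log2 of mean UMIs per 10000 plus 1, colour) in each cell class and sample, grouped by role. Dcn and the fibrillar collagens are brightest in the stromal-like columns, Sparc is bright in mural-like, endothelial-like and stromal-like cells, and the TFCO columns at the right are dark except for rows such as Sparc, Col4a6, Col25a1, Smoc2 and Prelp.

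The TFC-like cells of the gland held basement membrane RNA at lower levels, and few members were highest in them. Sparc was their highest member at 11.7 and 11.1, followed on the mean of the 2 samples by Col4a4 (3.28), Smoc2 (3.12), Col4a2 (2.94) and Col4a1 (2.03). Col4a4, a chain of the alpha 3, 4, 5 network of collagen IV, was highest in TFC-like cells at 4.07 and 2.49 against 1.20 and 2.16 in endothelial-like cells, but 1 cell in each sample held 39.4% and 35.8% of that level, and without these cells it was 2.52 and 1.63. Lamb3, a laminin beta chain of epithelial basement membranes, was also highest here, at 1.98 and 0.620, and no other class mean passed 0.427. Smoc2, a calcium-binding matricellular protein, stood at 2.53 and 3.71 in TFC-like and at 3.14 and 3.97 in stromal-like cells, which overlapped. Col18a1, the multiplexin that gives rise to endostatin, stood at 1.32 and 1.02 in TFC-like cells, above every other tissue class.

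The TFC-like cells of TFCOs were compared with those of the gland over samples, by limma with variance weights on log2 of the mean level plus 1, fitted on all genes with a mean of at least 0.5. Col4a1, Col4a2, Col4a4, Lamb1, Lamb3 and Sparc were lower in TFCOs, and Col4a6 and Col25a1 were higher. These were 8 of the 23 members tested, against 26.1% of the 4338 genes tested (higher 20.1%, lower 6.02%), so that 2 of 23 members rose and 6 of 23 fell while 872 genes rose and 261 fell. The median difference was -0.00109 on the log2 scale over the 23 members and 0.222 over all genes, and with each sample centred on its median gene 334 genes rose and 385 fell while the same 8 members were called in the same directions. The other 46 members were below the filter and were not tested. Col4a1, Lamb1 and Lamb3, with TFCO means of 0.312, 0.372 and 0.218, passed the filter through their tissue level, so they could only be called lower. Agrn and Lama5, with tissue means of 0.245 and 0.342, passed it through their TFCO level and could only be called higher. TFCO and tissue samples did not overlap for 12 of the 23 members, against 50.5% of all genes.

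**Figure D3:**
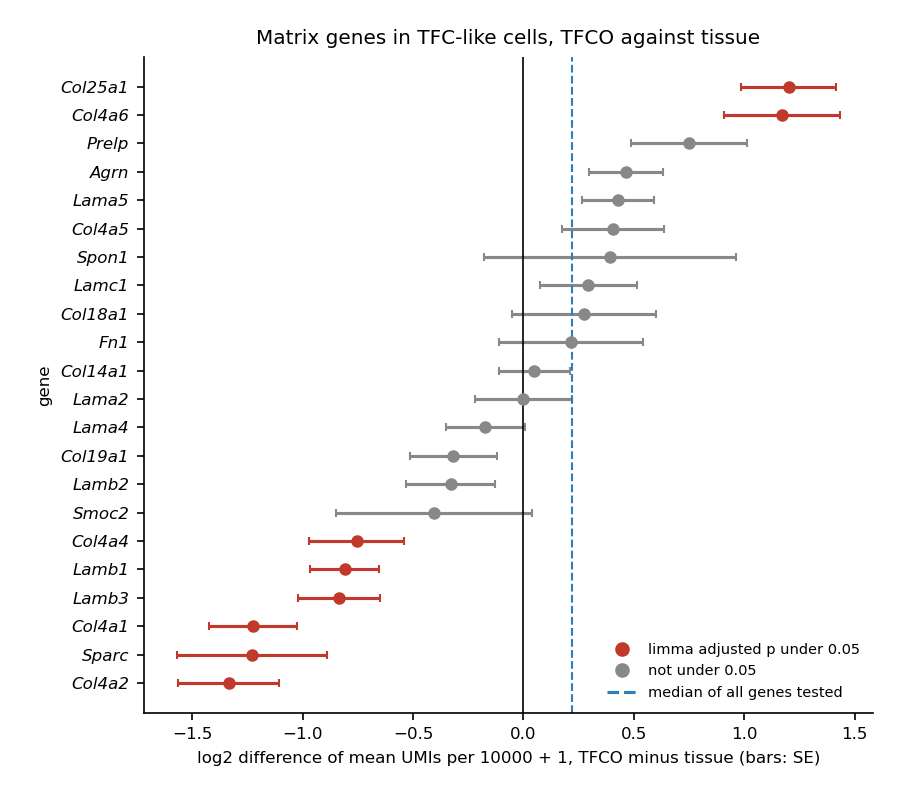
Difference between TFCO and tissue in TFC-like cells (log2 of mean UMIs per 10000 plus 1) with its SE for 22 of the 23 members tested, in red where the limma adjusted p is under 0.05. The dashed line is the median of all genes at 0.222, and the 6 red points on the left run from -1.34 for Col4a2 to -0.75 for Col4a4.

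Of the 6 collagen IV genes, Col4a1, Col4a2 and Col4a4 fell and Col4a6 rose. Col4a1 stood at 1.85 and 2.21 in the 2 tissue samples, 0.426 and 0.0897 in the early and 0.458, 0.415 and 0.172 in the late TFCO samples, so that every TFCO sample was below both tissue samples. Its mean was 2.03 in tissue and 0.312 ± 0.169 (SD, n = 5) in TFCOs, a difference of -1.23 on the log2 scale (SE 0.20, limma adjusted p = 0.00261). Col4a2 stood at 2.22 and 3.66 in tissue, 0.678 and 0.315 in early and 0.742, 0.681 and 0.362 in late TFCOs, a difference of -1.34 (SE 0.23, limma adjusted p = 0.00336). For both of these neighbouring genes late sample 1 was the highest and early sample 2 the lowest of the TFCO samples.

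Col4a6, which encodes the alpha 6 chain that pairs with alpha 5 in the basement membranes of several epithelia and of smooth muscle, went the other way. It stood at 0.917 and 1.16 in tissue, 3.88 and 2.74 in early and 4.46, 4.08 and 3.29 in late TFCOs, so every TFCO sample was above both tissue samples. The difference was 1.17 (SE 0.26, limma adjusted p = 0.00998), and the TFCO mean of 3.69 ± 0.678 (SD, n = 5) was also above the mean of every tissue class, of which the stromal-like cells were highest at 1.35. The call was lost in 3 of 20 alternatives, at a filter of 0.1 (difference 1.17, limma adjusted p = 0.0571), with summed UMIs (1.06, limma adjusted p = 0.0817) and with the tissue cells low in endothelial markers described below. Its neighbour Col4a5 stood at 1.03 and 1.38 in tissue and between 1.52 and 2.28 in TFCOs, where late sample 1 was highest and late sample 3 lowest. The samples did not overlap, but the difference of 0.40 (SE 0.23) did not pass (limma adjusted p = 0.206), and its barcode correlation was 0.0631.

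Col4a4 stood at 4.07 and 2.49 in tissue, 1.79 and 1.90 in early and 1.18, 1.29 and 1.08 in late TFCOs, and the difference of -0.75 (SE 0.22) passed with a limma adjusted p of 0.0253. Its level followed the well barcode (0.4126), 1 cell held 15.9% to 30.5% of it in each TFCO sample, and the call was lost in 7 of 20 alternative analyses, with differences of -0.34 to -0.75. Its neighbour Col4a3 was not tested and stood at 0.398 and 0.393 in tissue and 0.159 to 0.488 in TFCOs, which overlapped. Summed over the 6 genes, collagen IV stood at 10.5 and 11.3 in tissue and 6.64 to 9.28 in TFCOs, of which Col4a1 and Col4a2 made up most in endothelial-like cells and Col4a6 and Col4a5 in TFCOs.

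**Figure D4:**
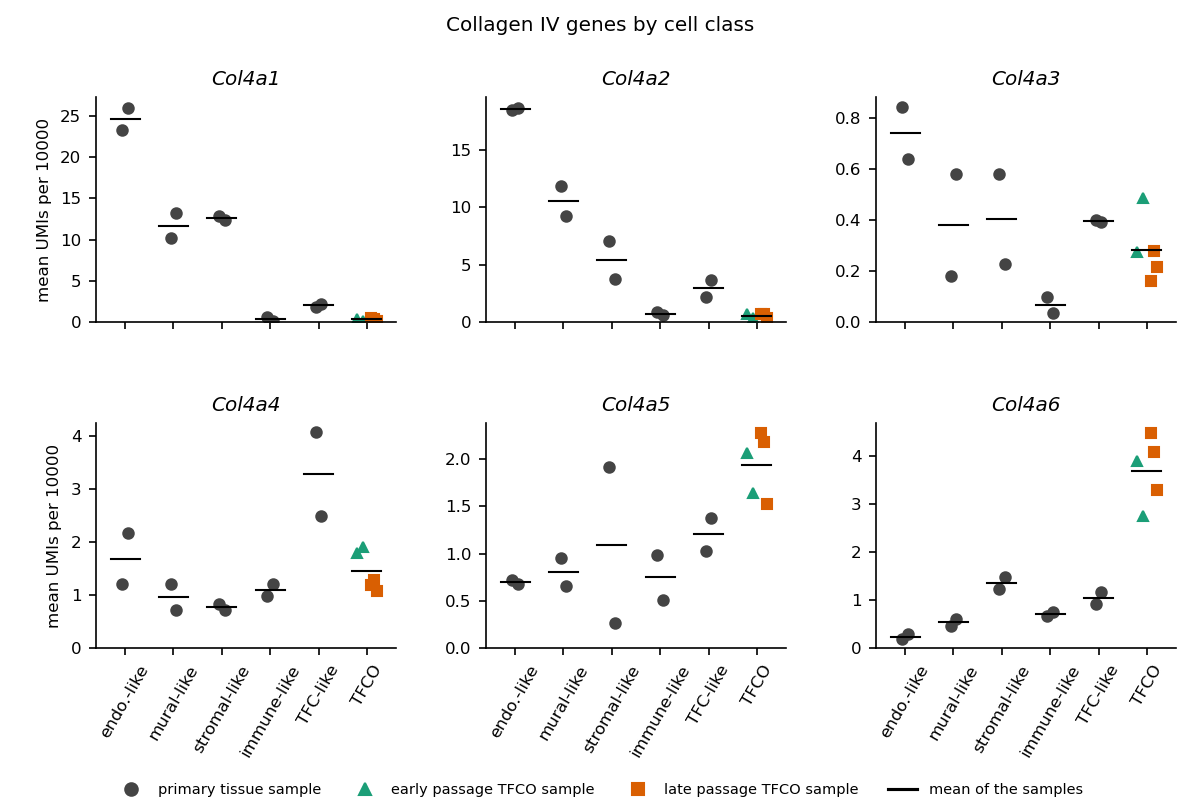
The 6 collagen IV genes by cell class (mean UMIs per 10000, linear axes that start at 0 and differ between panels), with 1 point per sample and a bar at the mean of the samples. Col4a1 and Col4a2 are highest in endothelial-like cells, at 24.6 and 18.6 on average, and Col4a6 is highest in the 5 TFCO samples, at 2.74 to 4.46.

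Among the laminins, Lamb1, a beta chain found in most early and many adult basement membranes, stood at 1.12 and 1.67 in tissue, 0.320 and 0.284 in early and 0.524, 0.401 and 0.331 in late TFCOs. The difference was -0.81 (SE 0.16, limma adjusted p = 0.00519), and the call was lost in 3 alternatives, with differences of -0.48 to -0.71. Lamb3 stood at 1.98 and 0.620 in tissue against 0.276 and 0.328 in early and 0.137, 0.144 and 0.207 in late TFCOs, with a difference of -0.84 (SE 0.19, limma adjusted p = 0.00989). Tissue sample 1 was well above tissue sample 2, and without it the gene fell below the filter. With no filter the call was lost (difference -0.84, limma adjusted p = 0.0778). Lamb3 also overlaps Hsd11b1 and G0s2, which lie on the opposite strand.

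The other laminins tested did not pass. Lama5, the main alpha chain of mature epithelial basement membranes, stood at 0.107 and 0.577 in tissue and 0.649 to 0.954 in TFCOs, and although the samples did not overlap the difference of 0.43 (SE 0.16) did not pass (limma adjusted p = 0.0706). Lamc1, the gamma chain of most laminins, stood at 0.708 and 0.572 in tissue and 0.601 to 1.33 in TFCOs, and its samples overlapped. Lama2, Lama4 and Lamb2 overlapped as well, with differences of -0.0011, -0.17 and -0.33. Lama1 and Lama3 were below the filter, with Lama3 at 0.0809 to 0.244 and Lama1 at 0.0366 to 0.191 in TFCOs.

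Sparc was the highest member in TFCOs on the mean of the 5 samples, although Col4a6 was above it in early sample 1 and late sample 2, and it was lower than in the gland. It stood at 11.7 and 11.1 in tissue, 3.62 and 3.51 in early and 6.66, 3.71 and 5.38 in late TFCOs, and no TFCO sample reached the tissue samples. The difference was -1.23 (SE 0.34, limma adjusted p = 0.0222), and the call was lost without early sample 1 (difference -1.24, limma adjusted p = 0.0506) and in 4 other alternatives, with differences of -1.01 to -1.30. Of the linkers only Agrn was tested, at 0.0846 and 0.405 in tissue and 0.573 to 0.951 in TFCOs, a difference of 0.46 (SE 0.17, limma adjusted p = 0.0608) that did not pass. Hspg2, Nid1 and Nid2 were below the filter and stood at 0.0814 to 0.292, 0.0114 to 0.0820 and 0.0679 to 0.179 in TFCOs.

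Col25a1, a transmembrane collagen best known from neurons, was the other member that rose. It stood at 0.289 and 0.782 in tissue, 2.47 and 2.56 in early and 2.74, 2.47 and 2.18 in late TFCOs, a difference of 1.20 (SE 0.21, limma adjusted p = 0.00394). Tissue TFC-like cells held 4 and 28 of its UMIs, against 537 to 1190 in the TFCO samples, and its correlation with the well barcode was 0.1001. Prelp, a proteoglycan that anchors basement membranes to connective tissue, stood at 0.698 and 0.642 in tissue, 1.39 and 1.76 in early and 2.58, 1.34 and 2.47 in late TFCOs. Its samples did not overlap, and the difference of 0.75 (SE 0.26) missed the threshold (limma adjusted p = 0.0537) but passed it in 8 of 20 alternatives. Col14a1, Col18a1, Col19a1, Fn1, Smoc2 and Spon1 overlapped between tissue and TFCOs, with differences between -0.41 and 0.39.

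With the filter lowered to a mean of 0.1, 54 members were tested and 10 passed, of which 1 was higher in TFCOs, against 5.09% of 12108 genes. Col4a1, Col4a2, Lamb1, Lamb3 and Col25a1 passed under both filters. The members called in addition were genes that led in stromal-like cells of the gland. They stood at 0.00364 to 0.120 in TFCOs and passed the filter through their tissue level. Their calls could therefore only be lower in TFCOs. Col3a1 stood at 0.992 and 0.659 in tissue TFC-like cells and 0.0115 to 0.120 in TFCOs (limma adjusted p = 0.00268), and Col6a2 at 1.77 and 0.728 against 0.00364 to 0.0238 (limma adjusted p = 0.00117). Col1a2 stood at 0.399 and 0.455 against 0.0122 to 0.0851, Col15a1 at 0.327 and 1.45 against 0.0161 to 0.0806, and Nid1 at 0.699 and 0.206 against 0.0114 to 0.0820. Stromal markers summed to 226 and 194 in stromal-like cells, 5.02 and 3.28 in tissue TFC-like cells and 1.85 to 3.84 in TFCOs. Of the 12 stromal markers, of which Dpep1 had no values, 5 and 8 were detected in the tissue TFC-like cells and 8 to 11 in the TFCO samples. The TFC-like cells held 121758 and 548016 UMIs in tissue and 1962236 to 4639141 in TFCOs, so these counts are not compared. The TFCO sums were mostly Scara5, at 1.37 to 2.6, and Gsn, at 0.398 to 1.77. In tissue TFC-like cells Scara5 stood at 0.711 and 0.027 and Gsn at 3.73 and 3.0. The part of stromal RNA in these calls was not tested.

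Of the genes lower in TFCOs, Col4a1 and Col4a2 led in endothelial-like and Sparc in mural-like cells, so the endothelial RNA in tissue TFC-like cells was measured beside them. The 12 endothelial markers summed to 13.7 and 17.2 in tissue TFC-like cells and 192 and 188 in endothelial-like cells. They summed to 8.65 and 9.35 in immune-like cells and 6.87 to 10.5 in TFCOs. Cldn5 and Egfl7 were at 0 in TFC-like cells of tissue sample 1. They were also low in endothelial-like cells, at 0.253 and 0.223 for Cldn5 and 0 and 0.0604 for Egfl7. Tek made up 6.39 and 5.79 of the tissue TFC-like sums and 5.32 to 8.11 of the TFCO sums. Flt1, Emcn, Plvap, Ly6c1, Pecam1, Cdh5, Tie1 and Esam were each higher in both tissue samples than in any TFCO sample. Kdr and Tek overlapped. Flt1, Emcn, Plvap and Ly6c1 ran from 0.511 to 2.43 in tissue TFC-like cells and up to 0.837 in TFCOs. Pecam1 stood at 1.88 and 1.48 against 0.476 to 0.998. Cdh5, Tie1 and Esam were lower, at 0.0508 to 0.733 against up to 0.0606. Over the 10 markers that reached 1 UMI per 10000 in endothelial-like cells, the TFC-like level was 4.96% of the endothelial-like level at the median and lay between 2.51% and 11.7%, except for Tek at 69.2%, which also stood at 5.32 to 8.11 in TFCOs. The same percentage was 8.25% for Col4a1, 15.8% for Col4a2, 38.7% for Sparc and 71.0% for Lamb1. In immune-like cells of the gland the percentages were 1.47%, 3.82%, 1.76% and 11.1%, and 2.25% at the median of the markers. In TFC-like cells the percentage of Col4a1 lay within the range of the markers without Tek. Those of Col4a2, Sparc and Lamb1 lay above it. The part of endothelial RNA in these levels was not tested.

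In the 23 TFC-like cells per tissue sample at or below the median of summed endothelial markers, Col4a1 stood at 2.21 and 1.19, Col4a2 at 2.15 and 3.18 and Sparc at 12.5 and 11.6, all above each TFCO sample. Lamb1 at 0.867 and 1.66 and Lamb3 at 2.72 and 0.580 were above each TFCO sample as well, whereas Col4a4 at 6.02 and 1.20 overlapped them. With only these tissue cells 5 of 24 members were called, against 9.59% of 4336 genes. They were Col4a1, Col4a2, Lamb3, Col25a1 and Col3a1, a fibrillar collagen that led in stromal-like cells. Col3a1, at 0.0115 to 0.120 in TFCOs, entered this fit through its tissue level, so it could only be called lower in TFCOs. The other members lost the call with differences of -1.30 for Sparc (limma adjusted p = 0.0866), -0.71 for Lamb1 (limma adjusted p = 0.0518), 1.04 for Col4a6 (limma adjusted p = 0.0802) and -0.66 for Col4a4 (limma adjusted p = 0.243). This choice of cells was made after the data had been seen. The sum that ranked the cells includes Tek, which stood at 5.32 to 8.11 in TFCOs, so it does not select on endothelial RNA alone. The part of endothelial RNA in the calls was not tested.

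Late and early passage TFCOs were compared in the same fit. None of the 23 members passed limma's adjusted threshold, as 1 of 4338 genes did (0.0231%). At an unadjusted p under 0.05 there were 5 members, against 20.0% of all genes, namely Col14a1, Col19a1, Col4a4, Lama2 and Lama4, all lower in late passage, as were 12.8% of all genes. Of these 5, all but Col14a1 followed the well barcode above 0.05, with Lama4 at 0.3773 and Col19a1 at 0.0722. Late and early samples did not overlap for 10 of the 23 members, against 42.1% of all genes. Without early sample 1, Lama2 passed with a difference of -0.59 (limma adjusted p = 0.0405) and 322 genes did, with the lone remaining early sample assumed to vary like the other groups.

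Several members differed widely among the 5 TFCO samples, within either passage. Of 33 members with a TFCO mean of at least 0.2, the highest sample was over 3 times the lowest for 10. The share over all genes of that level was not computed, so this count does not set the members apart. Spon1 stood at 0.640 and 2.45 in early and 3.31, 0.462 and 2.79 in late TFCOs, so early sample 1 and late sample 2 were low and the other samples high. Col9a1, a collagen of the fibril surface, stood at 0.0372 and 0.303 in early and 0.759, 0.0271 and 0.312 in late TFCOs, with the same samples lowest. Fn1, which encodes fibronectin, stood at 1.45 and 0.364 in early and 0.813, 1.29 and 0.435 in late TFCOs, where these samples were highest. Early sample 1 and late sample 2 also had the deepest TFC-like cells, at a median of 12070.5 and 12637 UMIs. The other TFCO samples stood at 5197.5 to 8987, and the part of depth was not tested.

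Smoc2 stood at 1.94 and 1.22 in early and 5.36, 2.10 and 1.59 in late TFCOs, so that late sample 1 stood apart. Col18a1 stood at 1.24 and 1.29 in early and 3.14, 1.09 and 2.22 in late TFCOs. Prelp ranged from 1.34 to 2.58 with late samples 1 and 3 highest. Col25a1 varied least of the 33 members, from 2.18 to 2.74. Lines and plates of the TFCO samples are not given in the labels, so neither could be set against these differences.

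**Figure D5:**
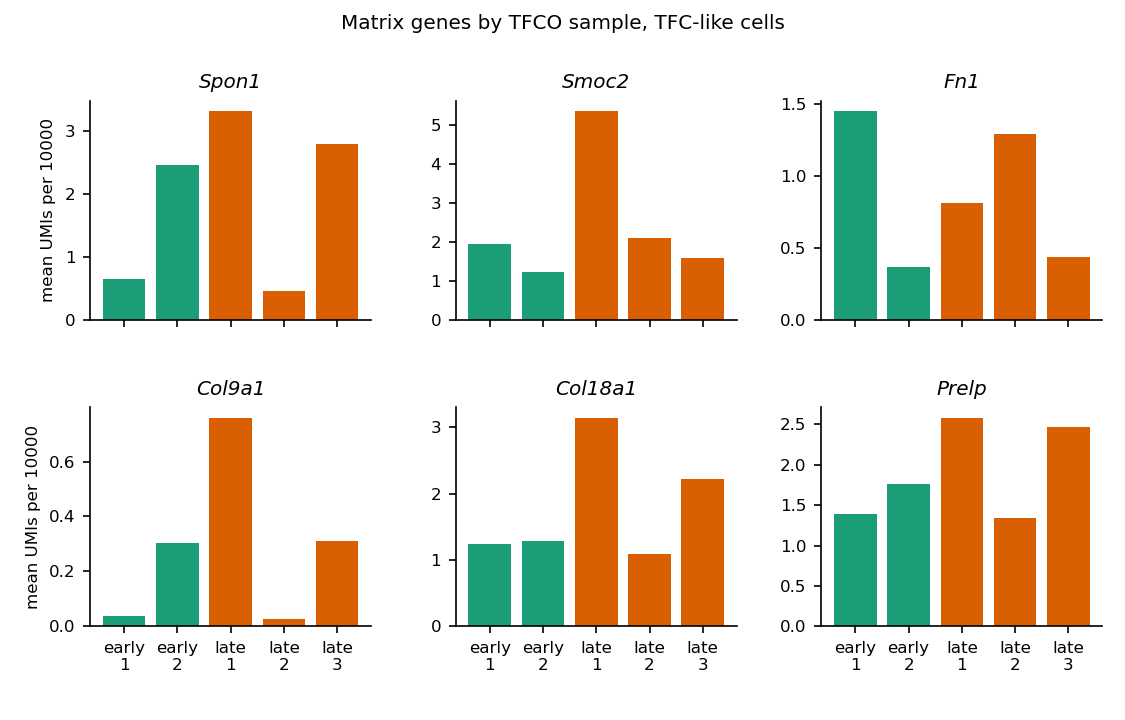
Level of 6 members in TFC-like cells of each TFCO sample (mean UMIs per 10000, bars from 0, early passage in green and late passage in orange). Spon1 and Col9a1 are lowest and Fn1 highest in early sample 1 and late sample 2, and Smoc2 reaches 5.36 in late sample 1.

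Genes that process collagen and the receptors that bind the matrix were set beside the members. Of 25 processing enzymes, among them the prolyl and lysyl hydroxylases and lysyl oxidases, 4 were tested and 0 passed limma's adjusted threshold (0 at an unadjusted p under 0.05), with a median difference of 0.00929 on the log2 scale. Of 27 matrix receptors 15 were tested, and 5 rose and 3 fell in TFCOs, where 20.1% of all genes tested rose and 6.02% fell. Itga1, the alpha chain of a collagen receptor, stood at 0.371 and 0.399 in tissue and 1.66 to 2.55 in TFCOs (difference 1.15, SE 0.21, limma adjusted p = 0.00453). Itga1 passed the filter through its TFCO level, so it could only be called higher. Itga3, the alpha chain of a laminin receptor, stood at 1.25 and 1.51 against 3.14 to 4.96 (difference 1.06, SE 0.27, limma adjusted p = 0.0171). Dag1, which encodes dystroglycan, stood at 0.973 and 1.47 against 2.67 to 4.37 (difference 1.05, SE 0.27, limma adjusted p = 0.0157).

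Sdc4 and Itgb8 were the other receptors that rose. Itgb8, at 0.127 and 0.236 in tissue, also passed the filter through its TFCO level and could only be called higher. Bcam, a receptor for laminin alpha 5, stood at 21.7 and 15.0 in tissue and 3.25 to 7.5 in TFCOs (difference -1.69, SE 0.46, limma adjusted p = 0.0214). Ddr1, a receptor kinase for collagen, and Itga11 fell by 0.58 and 0.48 on the log2 scale (limma adjusted p = 0.0411 and 0.0391). Between late and early passage 0 of the enzymes and 0 of the receptors passed limma's adjusted threshold, with 1 and 1 at an unadjusted p under 0.05, against 0.0231% and 20.0% of all genes.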

How the data were processed

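Single cells were profiled by SORT-seq, a plate method with CEL-seq2 chemistry and UMIs. Values for 30879 genes in 2590 cells were deposited as the natural log of 1 plus UMIs per 10000, and per the labels STAR 2.5.3a, Trim Galore 0.4.3, Seurat and build GRCm38 were used. UMIs were recovered by dividing each cell by its smallest value (100% whole within 0.01), assuming that value is 1 UMI, so depths are those of the table. A minimum of 1000 UMIs per cell left 2035 cells, and no doublet caller was run. Clusters (scanpy 1.11.5, Leiden by igraph 0.11.9 at resolution 1, 2000 variable genes, 30 components, 15 neighbours) were made for tissue and TFCOs separately, without members, listed enzymes and receptors, and genes above a barcode correlation of 0.05. They were named from marker lists, and stayed unnamed under 0.5 of the best cluster's score. This limit and the scoring rule were set after clusters had been seen. TFC-cluster cells scoring above TFC for another list (C cell, parathyroid, erythroid) were set aside, 16 in tissue and 7 in TFCOs. Shares held by single cells are those of the summed level.

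Differences were tested by limma 3.58.1 (R 4.3.3, trended empirical Bayes, weights by tissue against TFCO, pseudocount 1, filter 0.5, Benjamini-Hochberg over all genes). A fold change on this scale understates low genes. The test was checked on simulated data. Members and lists were chosen with earlier results of these data known. Named were the members tested, the 5 highest per tissue class and the basement membrane core, with others named after their values were seen (Col9a1, Col6a2). All 69 members had a gene in the annotation and 47 a promoter window. Sequences of the proteins are not given here, and 1 tested member is counted but its values are not reported here.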

Additional observations from a re-analysis of the deposited data

How the results depend on the processing

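The 8 members called between TFCO and tissue became 4 with UMIs summed over cells, 5 with only the tissue cells low in endothelial markers, and 7 to 13 when each sample was left out in turn, the 13 without tissue sample 2. Under every other alternative the count was within 1.5 times 8. All genes called, 1133, became 616 with a filter at 0.1, 747 with no filter, 1875 with equal weights, 147 with UMIs summed over cells, 719 with each sample centred on its median gene, 588 with cells of 2000 or more UMIs, 416 with tissue cells low in endothelial markers, and 836 to 1848 when each sample was left out (1805 without tissue sample 1, 1848 without tissue sample 2). Summed UMIs with those 2 deep cells of tissue sample 2 removed gave 966 genes and 7 members. Between late and early passage, leaving out a sample gave 1 to 322 genes and 0 to 1 members, the highest values without early sample 1, and 2 genes without late sample 2. Over the 20 alternatives Col4a1, Col4a2 and Col25a1 kept their call and direction in each, with adjusted p up to 0.0392, 0.0336 and 0.0271, while Col4a4 lost it in 7, Sparc in 5, Col4a6 and Lamb1 in 3 each and Lamb3 in 1 of the 19 in which it was tested. Members that had not passed changed sign near 0. Col14a1 became -0.1379 when centred, -0.0047 at 2000 UMIs, -0.0707 at 500 UMIs and, with samples left out, ranged from -0.1811 (without tissue sample 2) to 0.2799. Col18a1 became -0.1554 at 2000 UMIs. Lama2 became 0.0713 when summed, 0.1546 at 2000 UMIs, 0.0093 without tissue sample 1, 0.0013 and 0.0128 without late samples 1 and 3, and 0.1251 without early sample 1, and was lowest at -0.1273 without early sample 2. Lama4 became 0.0099 at 2000 UMIs, 0.2216 with low endothelial cells and, with samples left out, -0.3737 to 0.0294 (without tissue sample 1). Lamb2 became 0.147 with low endothelial cells. The cause was not tested in any of these. Of 864 alternative class levels 184 moved by more than 1 SD. The tissue TFC-like cells number 45 per sample, which limits every TFCO comparison, and a member's UMIs there can be as few as 4. No paired analysis was possible because no label ties a tissue sample to an organoid line and TFCO samples are numbered apart from tissue. The low endothelial cells and the sums without the deepest cells were chosen after seeing the data.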

Other observations

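The tissue cells left unnamed also carried vascular matrix genes. A cluster of 105 cells had Col4a1 at 11.7 and 9.09 UMIs per 10000 in tissue samples 1 and 2, Lama3 at 2.61 and 1.88 and the endothelial receptor gene Flt1 at 24.5 and 24.7, with Hbb-bs, Flt1 and Lama3 among its leading genes. A cluster of 50 cells was led by predicted gene models and had Col4a1 at 2.92 and 2.76 and Sparc at 5.38 and 4.19. In TFCOs 41 cells of low depth stayed unnamed, 21 of them in early sample 1 and 15 in late sample 2, with Lama4 at 2.83 and 1.22 from 15 and 5 UMIs.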
